A study of Mus musculus with 3 samples.

Results

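The platelet-derived growth factor (PDGF) family was described across 3 single-colour expression arrays of primary endothelial cells of the mouse penis (corpus cavernosum, the erectile tissue; strain C57BL/6). It comprised 7 genes chosen by symbol: the ligands Pdgfa, Pdgfb, Pdgfc and Pdgfd, the receptors Pdgfra and Pdgfrb, and the receptor-like gene Pdgfrl. They were read by 9 of the 39429 probes and made up 7 of the 19737 genes that could be named. Cells on the siRNA-labelled array had 30 mmol glucose and an siRNA against ninjurin1 (Ninj1, 200 pmol). Those on the HG-labelled array had 30 mmol glucose, and those on the NG-labelled array 5 mmol. All were kept for 48 h, and all grew in medium 199 with 20% fetal bovine serum and added VEGF-A at 5 ng/ml. Whether a control siRNA was given to the other cells is not stated. Each array carried RNA pooled over 3 numbered samples, so there was 1 array per group, no replicate error and no test. "Higher" and "lower" therefore describe these arrays only.

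PDGFs are secreted as dimers that bind and pair receptor tyrosine kinases on mesenchymal cells. PDGF-A and PDGF-C chains act mainly through the alpha receptor (Pdgfra), which marks fibroblasts and mesenchymal progenitors. PDGF-B and PDGF-D act mainly, but not only, through the beta receptor (Pdgfrb), which marks pericytes, smooth muscle cells and fibroblasts. In blood vessels, endothelial cells release PDGF-B to recruit pericytes, and they themselves carry little of either receptor.

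The siRNA target and the cell identity bear on every value that follows. Ninj1, read by 1 probe, had a signal of 25539 on the siRNA-labelled array, against 16291 on the HG-labelled and 20413 on the NG-labelled array, so the target was brightest where its siRNA is labelled. File names of the 2 high-glucose arrays carry each other's group words, so arrays are called here by their labels. Of 16 endothelial markers, Tie1, Emcn, Erg and Sox18 were not well above background on any array. The brightest endothelial marker was Kdr, the main VEGF receptor. The brighter of its probes read 8278, 7298 and 7440 on the siRNA-, HG- and NG-labelled arrays. All 12 fibroblast markers were well above background on every array. Across all probes, 70.6%, 67.6% and 67.1% were well above background on those arrays, and no spot was saturated.

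Every PDGF family gene was detected: 8 of the 9 probes were well above background on all 3 arrays, the exception being the dimmer of the Pdgfb probes. Pdgfa and Pdgfb had 2 probes each and the other 5 genes 1 each. Signals below are the background-subtracted intensities given by the scanner software on a linear scale. Differences are on the log2 scale after each array was set to its own 75th percentile of probe signal (2026, 1731 and 1781 on the siRNA-, HG- and NG-labelled arrays). The scanner software gives each spot an error of about 10% of its signal, which makes 0.20 on the log2 scale for a difference between spots of 2 arrays, except where another value is given. In 300 repeated probes the spread between spots of an array was smaller, at 0.08 for such a difference. Neither covers variation between cultures or hybridisations.

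**Figure D1:**
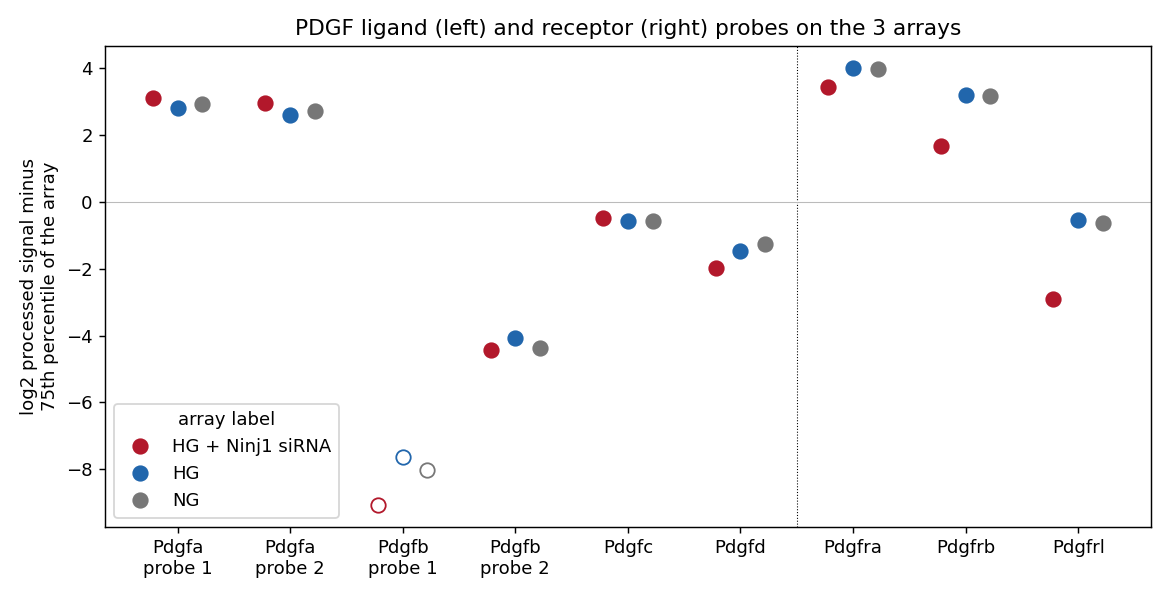
Scaled log2 signal of each PDGF probe (vertical axis) on the siRNA-, HG- and NG-labelled arrays, with open circles for spots not well above background. Points of different probes cannot be set against each other. Within probes, the siRNA-labelled array was the lowest for Pdgfd, for both Pdgfb probes and for each of Pdgfra, Pdgfrb and Pdgfrl. It was the highest for Pdgfc and both Pdgfa probes. For Pdgfc, and for Pdgfb against the NG-labelled array, these gaps were under the scanner error. The HG- and NG-labelled arrays lay close together for the receptors. For Pdgfb the HG-labelled array was the highest.

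Of the 7 members 4 had an entry in the RefSeq promoter table, and Pdgfb, Pdgfrb and Pdgfrl are not shown. The upstream sequence of 3 genes is printed as an example of each direction: Pdgfa was higher on the siRNA-labelled array, and Pdgfd and Pdgfra were lower. Each window runs from 250 bases before to 50 bases after a transcription start, from RefSeq on build GRCm38.p6, and is written in the direction of transcription. Both starts listed for Pdgfa are given. Capitals mark matches, on either strand, to GGGCGG (the core of Sp1 sites) or TATAAA (the TATA box).
Pdgfa promoter, chr5:138994895-138995194, minus strand: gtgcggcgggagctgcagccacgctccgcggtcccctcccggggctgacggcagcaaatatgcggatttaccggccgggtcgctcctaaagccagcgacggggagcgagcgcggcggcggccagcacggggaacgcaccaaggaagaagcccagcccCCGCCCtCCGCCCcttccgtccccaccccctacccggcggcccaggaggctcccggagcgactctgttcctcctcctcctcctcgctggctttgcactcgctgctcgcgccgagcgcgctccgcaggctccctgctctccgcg
Pdgfa promoter, chr5:138994232-138994531, minus strand: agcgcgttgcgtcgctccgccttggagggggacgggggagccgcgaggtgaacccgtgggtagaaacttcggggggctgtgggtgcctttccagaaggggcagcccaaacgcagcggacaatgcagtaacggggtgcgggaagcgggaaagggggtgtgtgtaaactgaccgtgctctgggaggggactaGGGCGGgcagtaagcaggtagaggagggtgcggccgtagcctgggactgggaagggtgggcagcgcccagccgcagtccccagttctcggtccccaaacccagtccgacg
Pdgfd promoter, chr9:6168236-6168535, plus strand: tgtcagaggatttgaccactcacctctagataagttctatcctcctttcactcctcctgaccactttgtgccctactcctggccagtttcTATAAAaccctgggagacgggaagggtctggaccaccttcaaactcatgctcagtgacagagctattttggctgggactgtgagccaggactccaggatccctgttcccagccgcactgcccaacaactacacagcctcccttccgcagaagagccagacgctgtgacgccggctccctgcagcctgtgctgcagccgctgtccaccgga
Pdgfra promoter, chr5:75152001-75152300, plus strand: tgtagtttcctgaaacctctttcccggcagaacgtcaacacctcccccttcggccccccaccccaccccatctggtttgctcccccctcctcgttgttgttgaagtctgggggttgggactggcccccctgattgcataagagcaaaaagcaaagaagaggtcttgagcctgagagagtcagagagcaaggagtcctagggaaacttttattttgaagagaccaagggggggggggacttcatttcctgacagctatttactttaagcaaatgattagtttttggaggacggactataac

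Both Pdgfa windows were rich in G and C, at 73.3% and 67.0% of bases, against 56.7% in the Pdgfd window and 51.0% in the Pdgfra window. The first Pdgfa window held GGGCGG 2 times and the second 1 time, and 35.7% of all 32851 promoter windows held it. The Pdgfd window held TATAAA 1 time, a motif in 13.6% of windows. The Pdgfra window held neither motif. None of the 4 windows held GCGGGGGCG (Egr1, in 2.91% of windows) or TGACTCA (AP-1, in 5.20%), the sites of factors that the PDGF response itself induces. A match is a run of letters and no evidence of binding.

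On the siRNA-labelled array the receptor side of the family was lower than on the HG-labelled array, and the ligand side went both ways. Pdgfrl and Pdgfrb were 5.23-fold and 2.88-fold lower and Pdgfra 1.48-fold lower, whereas Pdgfa was 1.23-fold higher and Pdgfc, Pdgfb and Pdgfd lay within 1.43-fold in either direction. Thus 2 of 7 members were at least 2-fold lower, where 8.21% of all 15625 genes compared were, and 0 of 7 were at least 2-fold higher, where 6.52% of genes were. The median difference was -0.51 over the 7 members and 0.01 over the 14521 genes measured on both arrays.

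**Figure D2:**
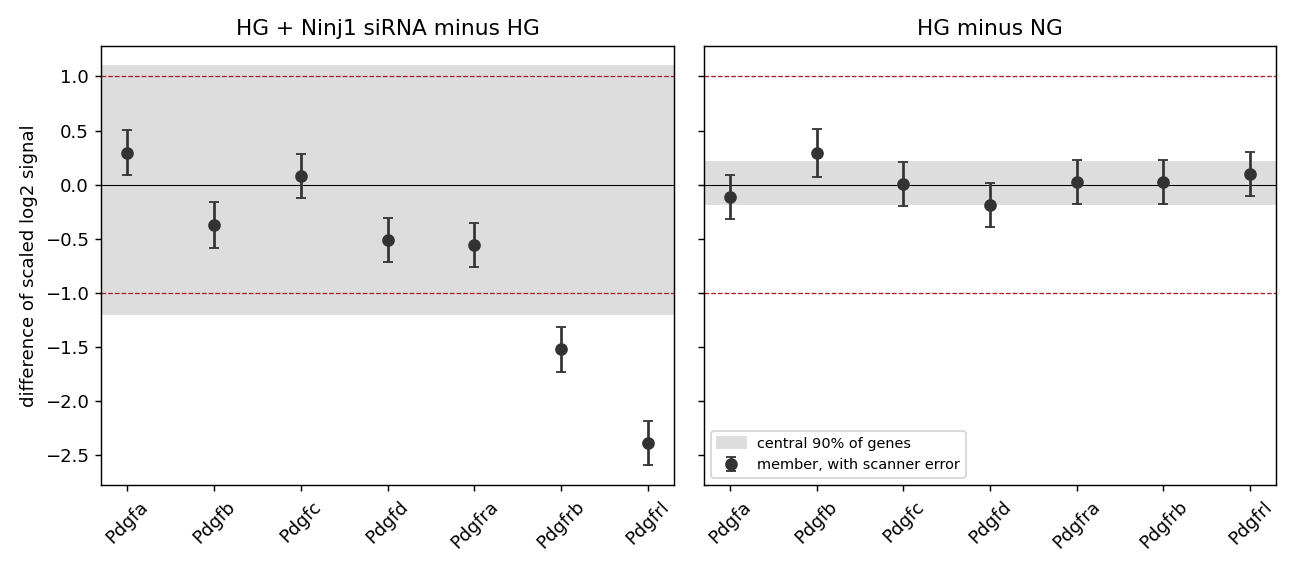
Log2 difference of each member between the siRNA- and HG-labelled arrays (left) and between the HG- and NG-labelled arrays (right), with bars for the scanner software's error, dashed lines at 2-fold, and a grey band for the central 90% of genes measured on both arrays. Pdgfrb and Pdgfrl lie below the band on the left, and on the right Pdgfb lies just above it and Pdgfd just below it.

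The alpha receptor gave the most precise reading, because its probe was printed 10 times on each array. Pdgfra spots on the siRNA-labelled array ran between 21683 and 22809 with a median of 22212. The HG-labelled array gave 27174 to 29064 with a median of 28023, and the NG-labelled array 27276 to 29299 with a median of 28448. All 10 spots on the siRNA-labelled array were dimmer than any of the 20 spots on the other arrays, whose ranges overlapped. After scaling, the mean was 3.46 ± 0.03 on the siRNA-labelled array, 4.02 ± 0.03 on the HG-labelled and 3.99 ± 0.03 on the NG-labelled array (log2, SD over 10 spots). The difference from the HG-labelled array was -0.56, larger than the spot-to-spot SD of 0.04 for a difference. It was modest among all genes: 15.5% of those measured were at least as much lower.

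**Figure D3:**
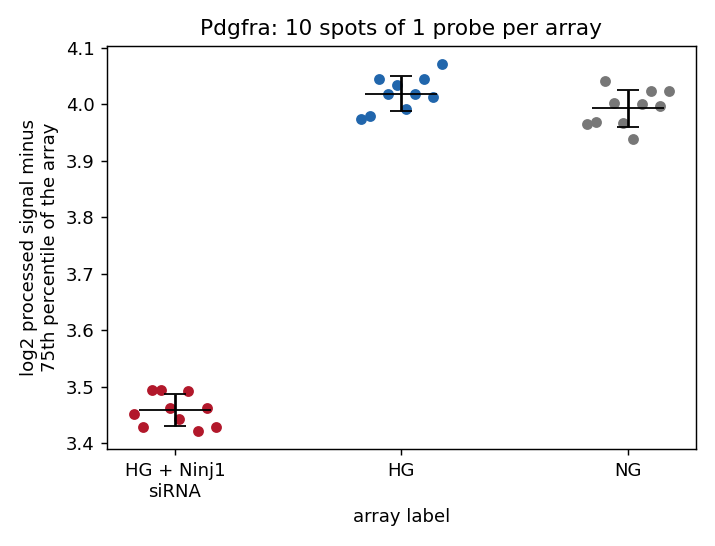
Scaled log2 signal of the 10 Pdgfra spots on each array, with the mean and SD over spots. The siRNA-labelled spots lie between 3.42 and 3.49, the HG-labelled between 3.97 and 4.07 and the NG-labelled between 3.94 and 4.04, and spots of an array share its RNA.

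The beta receptor differed more. Pdgfrb had a signal of 6413 on the siRNA-labelled array, 15771 on the HG-labelled and 15962 on the NG-labelled array, from 1 spot each. Its level on the siRNA-labelled array was thus well under either of the others, which were nearly equal. The difference was -1.53 from the HG-labelled array and -1.50 from the NG-labelled array, and 2.91% of measured genes were at least as low in the first comparison. These 2 comparisons share an array and do not back each other up.

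Pdgfrl, encoding a secreted protein that resembles the ligand-binding part of the beta receptor and has no kinase, was the member that differed most. Its signal was 269 on the siRNA-labelled array, against 1202 on the HG-labelled and 1157 on the NG-labelled array. The spot on the siRNA-labelled array was dim but well above background, where the lowest such signal was 11.7. Its log2 difference was -2.39 from the HG-labelled array and -2.29 from the NG-labelled array. Only 0.895% of measured genes were at least as low against the HG-labelled array. All 3 receptor genes kept their sign under each of 6 other settings of scaling, background, source and probe choice. The 6 settings gave -0.68 to -0.55 for Pdgfra, -1.61 to -1.50 for Pdgfrb and -2.39 to -2.11 for Pdgfrl. Each receptor gene has a single probe, so the mean over probes could not alter it. For single-spot probes such as those of Pdgfrb and Pdgfrl, the authors' value table holds the same intensity. Neither setting is therefore a separate check on them.

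Among the ligands, Pdgfa encodes the A chain, which epithelia and other cells use to signal to the alpha receptor. Its brighter probe read 17585 on the siRNA-labelled array, 12234 on the HG-labelled and 13608 on the NG-labelled array. The other probe read 15654 on the siRNA-labelled array, 10460 on the HG-labelled and 11826 on the NG-labelled array. Both probes put the siRNA-labelled array highest and the HG-labelled array lowest. Against the HG-labelled array the difference was 0.30 on the brighter probe and 0.35 on the other, which exceeds the scanner error of 0.20 and leaves 27.2% of measured genes at least as high.

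Pdgfb, the B chain through which endothelium recruits pericytes, was dim. Its brighter probe read 92.8 on the siRNA-labelled array, 103 on the HG-labelled and 86.4 on the NG-labelled array. The difference from the HG-labelled array was -0.37, with a scanner error of 0.21. Its other probe gave 3.77 on the siRNA-labelled array, 8.73 on the HG-labelled and 6.84 on the NG-labelled array, not well above background on any, so no difference is given for it.

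The C and D chains are made as latent forms with a CUB domain that proteases must remove. Pdgfc read 1449 on the siRNA-labelled array, 1171 on the HG-labelled and 1197 on the NG-labelled array. Its difference of 0.08 from the HG-labelled array was under the scanner error. Pdgfd, whose product acts on the beta receptor, read 514 on the siRNA-labelled array, 627 on the HG-labelled and 738 on the NG-labelled array. Its log2 difference was -0.51 from the HG-labelled array and -0.71 from the NG-labelled array, both larger than the scanner error of 0.20.

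As labelled, the HG- and NG-labelled arrays differed little in this family. Between the HG- and NG-labelled arrays 0 of 7 members were at least 2-fold higher or lower, where 0.816% and 0.69% of 15081 genes were. The receptors differed by 0.03 (Pdgfra), 0.02 (Pdgfrb) and 0.10 (Pdgfrl) on the log2 scale, all under the scanner error. Pdgfb was 1.22-fold higher on the HG-labelled array (0.29, scanner error 0.22), a difference that 2.66% of 14491 measured genes reached, and it came from a dim spot. Pdgfd was 1.14-fold lower (-0.19), a value that 4.22% of measured genes reached or fell under, and Pdgfa differed by -0.11 on its brighter and by -0.14 on its other probe. These Pdgfd and Pdgfa differences were under the scanner error of 0.20. Pdgfc differed by 0.01, and its sign turned under 2 of 6 other settings.

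The comparison of the siRNA- with the NG-labelled array shares an array with each of those above. In it 2 of 7 members were at least 2-fold lower, where 7.93% of 15581 genes were, and 0 of 7 at least 2-fold higher, where 6.35% were. The differences were 0.18 for Pdgfa, -0.08 for Pdgfb, 0.09 for Pdgfc, -0.71 for Pdgfd, -0.54 for Pdgfra, -1.50 for Pdgfrb and -2.29 for Pdgfrl. Those of Pdgfb and Pdgfc, and that of Pdgfa on its brighter probe, were under the scanner error. The other Pdgfa probe gave 0.22, just above its scanner error of 0.20. The Pdgfb value changed sign under 1 of 6 other settings.

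Of the genes for PDGF processing and binding, Plau and Plat lay past 2-fold, in opposite directions. Plau, encoding urokinase, which activates PDGF-DD, read 2711 on the siRNA-labelled array, 431 on the HG-labelled and 437 on the NG-labelled array, 5.38-fold higher on the siRNA-labelled than on the HG-labelled array. Plat, encoding tissue plasminogen activator, which activates PDGF-CC, read 731 on the siRNA-labelled array, 2564 on the HG-labelled and 2798 on the NG-labelled array, 4.10-fold lower on the siRNA-labelled than on the HG-labelled array. Each rests on 1 probe. In the list of 10 processing and binding genes these were the 1 gene at least 2-fold higher and the 1 at least 2-fold lower, beside 6.52% and 8.21% of all genes, and the median was -0.23. Furin, the convertase that cleaves the A and B chains, differed by 0.13. Pcsk5, a related convertase, read 632 on the siRNA-labelled array, 1077 on the HG-labelled and 1072 on the NG-labelled array. Its scaled difference from the HG-labelled array was -0.997, only just short of 2-fold. Sparc, a matrix protein that binds PDGF-B, differed by -0.52.

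The signalling genes behind the receptors lay closer together. Of 19 proximal signalling genes, all well above background on both arrays, 0 passed 2-fold in either direction on the brightest probe of each. Among all genes 6.52% did so upward and 8.21% downward. Of the 19 genes 14 were below 0 and 5 above, with a median of -0.28. The median over all genes measured on both arrays was 0.01. Chosen after their values were seen, the ends of this list were Stat5a, a transcription factor downstream of tyrosine kinases, at -0.84 and the adaptor Nck2 at 0.71, and Grb2, the adaptor that links receptors to Ras, stood at -0.67 on its brighter and -1.02 on its other probe, the second past 2-fold. Of 9 negative regulators 8 could be compared and 0 passed 2-fold, to be read against those shares of all genes. They ran from the phosphatase gene Ptpn1 at -0.83 to the phosphatase gene Acp1 at 0.77. The other Ptpn1 probe gave -0.26. The probes of Acp1 disagreed: 3 of its 4 other probes shared its sign.

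Genes that PDGF and serum induce early also had 0 of 10 past 2-fold, beside 6.52% of all genes higher and 8.21% lower. These 10 genes had a median of 0.05. Their ends were Fosl1, a Fos family member, at 0.86 and the chemokine Ccl7 at -0.62, and Egr1, an early zinc finger factor, stood at 0.76. Of the relatives that share the class III receptor fold and their ligands, 0 of 7 passed 2-fold, beside the same shares of all genes. Their median was -0.49. The lowest was Flt3l, the Flt3 ligand, at -0.97, followed by Kitl, the Kit ligand, at -0.66. The receptors Kit and Flt3 were dim, with signals of 18.7 and 27.5 on the siRNA-labelled array and 23.0 and 21.8 on the HG-labelled array. Between the HG- and NG-labelled arrays 0 genes of these 5 lists passed 2-fold, where 0.816% of all genes were higher and 0.69% lower.

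**Figure D4:**
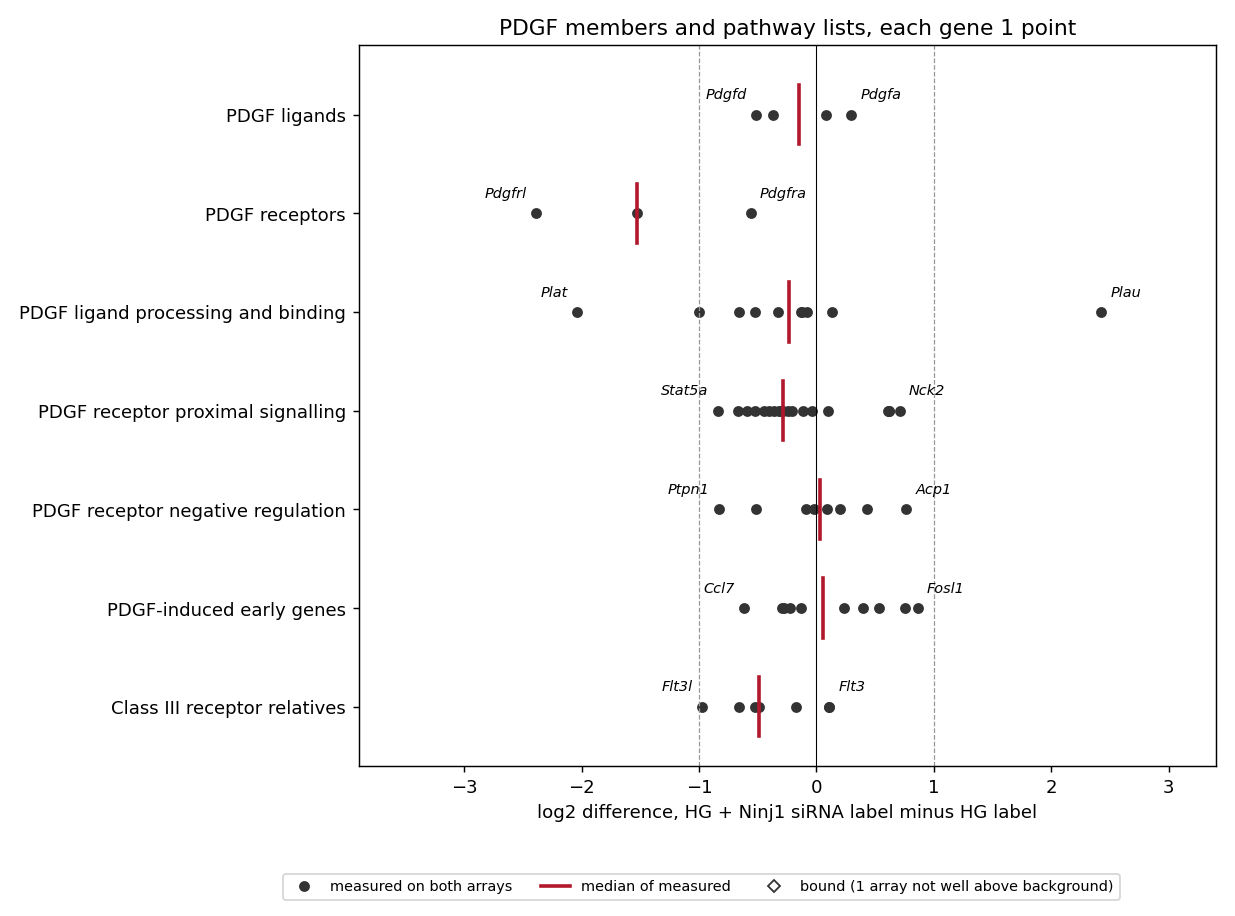
Log2 difference between the siRNA- and HG-labelled arrays for each gene of the PDGF ligands, the receptors and 5 pathway lists, with red lines at list medians and dashed lines at 2-fold. The receptors have a median of -1.53 and the ligands of -0.15, and beyond them only Plau and Plat lie past 2-fold.

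Markers of the cells that normally carry these receptors differed on the same arrays. Of 12 fibroblast markers 6 were at least 2-fold lower on the siRNA-labelled than on the HG-labelled array and 0 at least 2-fold higher, with a median of -1.12. Among all genes, which the counts of every marker list are to be read against, 8.21% were at least 2-fold lower and 6.52% at least 2-fold higher. The matrix genes Dpt, Lum, Fbln1 and Col3a1 were 8.46-fold, 6.79-fold, 4.57-fold and 3.74-fold lower. Fap, Pdpn and Thy1, the 3 fibroblast markers above 0, differed by 0.86, 0.20 and 0.10, and the sign turned for Pdpn under 1 and for Thy1 under 2 of 6 other settings. Summed over the list and divided by the array's 75th percentile, fibroblast signal was 515 on the siRNA-labelled array, 669 on the HG-labelled and 659 on the NG-labelled array. Dcn and Pdpn carried most of that sum, with signals of 380630 and 289526 on the siRNA-labelled array, against 432729 and 215851 on the HG-labelled array. Of 12 mural (pericyte and smooth muscle) markers 11 could be compared, of which 3 were at least 2-fold lower and 1 higher. Their summed signal, divided in the same way, was 28.9 on the siRNA-labelled array, 50.5 on the HG-labelled and 49.5 on the NG-labelled array. Mcam, Acta2 and Tagln carried most of it. Their signals were 31104, 5615 and 11550 on the siRNA-labelled array, against 32838, 24064 and 21549 on the HG-labelled array. The contractile genes Acta2, Cnn1 and Tagln were 5.02-fold, 2.53-fold and 2.18-fold lower, and Mcam, the brightest marker of the list, differed by -0.31. Myh11, a defining smooth muscle gene, stayed at background level on each of the arrays.

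Endothelial markers lay on both sides of 0. Of 12 endothelial markers compared, 2 were 2-fold or more higher and 4 were 2-fold or more lower, with Tek and Cldn5 among the lower ones as bounds. The junction genes Cdh5 and Esam were 2.86-fold and 2.22-fold higher, and the dim genes Vwf and Robo4 2.40-fold and 2.13-fold lower. These counts depended on the settings: with normexp background correction 1 marker was higher and 0 lower, and 2 were lower among probes well above background on every array. The smallest differences of Vwf and Robo4 under other settings were -0.64 and -0.57, short of 2-fold. Kdr differed by -0.05 on its brighter probe and by 0.45 on its other probe. With the mean over probes, the median of the measured endothelial markers moved from -0.05 to 0.20. Summed endothelial signal was 8.56 on the siRNA-labelled array, 7.85 on the HG-labelled and 7.75 on the NG-labelled array, most of it from Kdr and Egfl7. Macrophage markers had 1 higher and 3 lower of 7 compared and a summed signal of 19.8, 18.4 and 19.0 on those arrays. Itgam and Cd14 carried most of that sum, with signals of 19278 and 16711 on the siRNA-labelled array, against 21570 and 4989 on the HG-labelled array. The probes of Itgam disagreed: its brightest gave -0.39, and its others 0.49 and -0.49. Adgre1, Lyz2 and Ptprc, markers of macrophages or of leukocytes in general, differed by -2.06, -2.05 and -1.25. Cd14, Fcgr1 and Csf1r stood above 0, at 1.52, 0.36 and 0.11. Fcgr1 fell to -0.06 under another setting, and another Csf1r probe gave -0.16. Ptprc was dim, at 21.4 on the siRNA-labelled and 43.5 on the HG-labelled array, and its smallest difference under other settings was -0.60. With normexp background correction 2 rather than 3 macrophage markers were at least 2-fold lower. Epcam, Cdh1 and Krt8, of the 6 epithelial markers, were not well above background on any array. Krt18 was the 1 epithelial gene past 2-fold, at 1.90. In RNA from a whole culture, fewer cells of a type and less RNA per cell cannot be told apart. The part of cell composition in the receptor values was not tested.

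**Figure D5:**
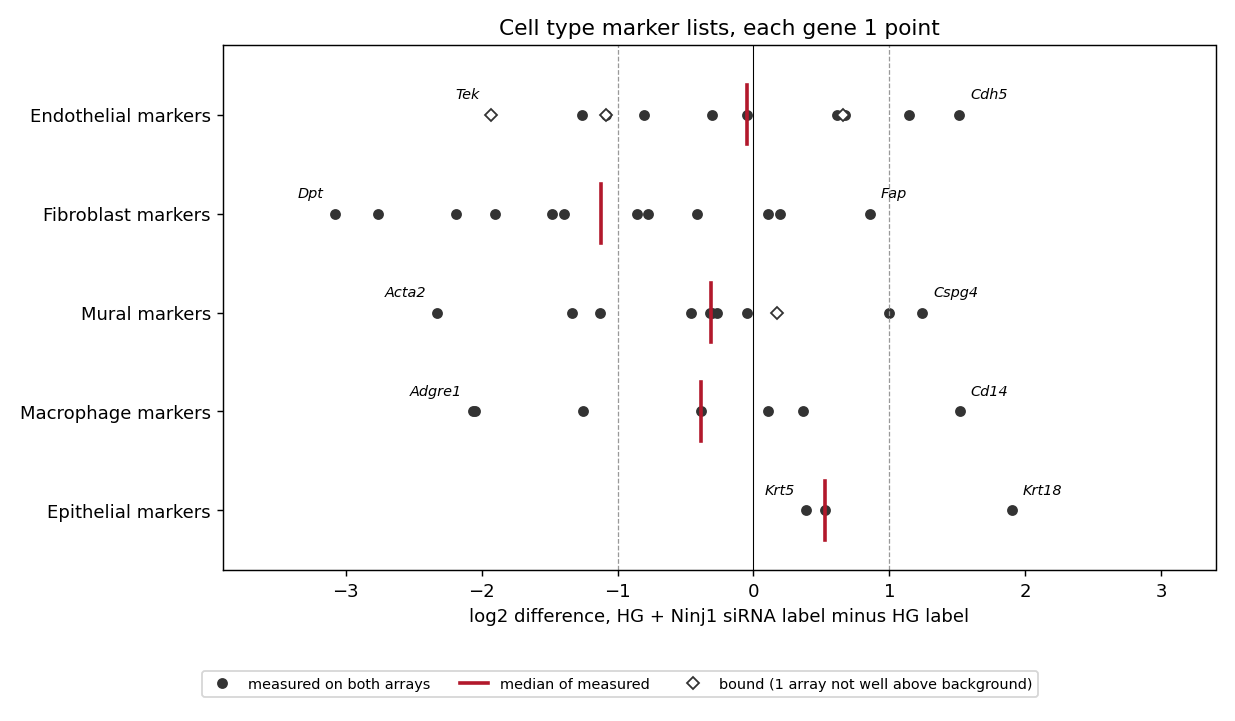
Log2 difference between the siRNA- and HG-labelled arrays for each gene of 5 marker lists, with diamonds where 1 array was not well above background and the value is a bound. Fibroblast markers have a median of -1.12, with 9 of 12 below 0 and 3 above, and 8 of 10 measured mural markers are below 0. Endothelial and macrophage markers lie on both sides of 0, and the 3 epithelial genes above it.

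Genes with the pattern most like each receptor were taken as those with the smallest distance between log2 values over the 3 arrays, each gene centred on its own mean, among 14358 other genes well above background on all arrays. For Pdgfra these were Leprot (0.0017), Hc (0.0030) and Srgap2 (0.0047), and 764 genes lay within 0.1. For Pdgfrb they were Denn2b (0.0079), Abcd2 (0.0099) and Prkg1 (0.014), and 103 genes lay within 0.1. With 3 arrays such a match is common and says little about any single gene.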

How the data were processed

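Total RNA pooled over 3 numbered samples per group was labelled with Cy3 and hybridised to 3 arrays, per the labels' protocols. Per the file headers, Agilent Feature Extraction 11.0.1.1 gave each spot a deposited background-subtracted intensity on a linear scale, in 1 scan of 1 slide, so no batch term was possible. The authors' series value table holds the same intensity: each column equalled its array's processed signal within 0.1% for 100% of 38999 probes with a single spot, with column medians of 129, 118 and 118 (siRNA-, HG- and NG-labelled), so it is linear and not centred.

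Outlier spots were left out (107, 147 and 109), which left 39398 probes readable on every array. The log2 intensity was averaged over spots and the array's 75th percentile subtracted. Probes were called well above background when at least 50% of their spots carried that mark. Probes were named by accession without version through the RefSeq gene table of GRCm38.p6, 66.1% of those readable; since the array design uses mm9, probe coordinates are not given. Each gene took the brightest of its probes that passed this on any array, and a difference with 1 dim array is a bound against the higher of the dim value and the lowest value above background. Named genes were all members, Ninj1, up to 4 genes per list past 2-fold, the brightest endothelial and mural marker, and the 3 nearest in pattern to Pdgfra and Pdgfrb; genes named beyond this are marked or are list members given for their role. The members and lists were chosen with earlier results of these data known. Results of 1 marker list are not reported here. The scaling and the 2-fold call were tested on simulated arrays in which every probe was set as well above background. The removal of outlier spots, the naming, the choice of probe and the bounds were not part of that test. Tools were Python 3.11.15, pandas 2.3.3 and limma 3.58.1 in R 4.3.3. Alternatives were quantile and cyclic loess normalization, scaling to the median of detected probes, normexp with an offset of 50 on median signals, the value table, the mean over probes, 2 filters on dim probes and thresholds of 1.5-fold and 3-fold. The number of arrays, 1 per group, limits the precision.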

Additional observations from a re-analysis of the deposited data

How the results depend on the processing

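Members kept their direction between the siRNA- and HG-labelled arrays under all 6 other settings of scaling, background, source and probe choice. The 6 are not separate checks. The mean over probes could alter only Pdgfa, because every other member had a single probe above background. The value table holds the same intensity for single-spot probes, which all members but Pdgfra had. The size moved by more than the spot spread of 0.08 with cyclic loess, to 0.20 for Pdgfa, -0.68 for Pdgfra and -1.61 for Pdgfrb, with quantile normalization, to -0.26 for Pdgfb, and with normexp, to -0.29 for Pdgfb and -2.11 for Pdgfrl. At 3-fold, 1 member (Pdgfrl) was lower against the HG-labelled and 1 against the NG-labelled array. The count of all genes past the threshold depended on the settings more. For siRNA against HG it was 619 higher and 776 lower with normexp, 2237 and 2460 at 1.5-fold, and 409 and 524 at 3-fold, beside 1018 and 1283. For HG against NG it was 40 and 32 with normexp, 433 and 329 with no filter, 35 and 26 with a filter on every array, and 229 and 187 at 1.5-fold, beside 123 and 104. For siRNA against NG it was 603 and 765 with normexp, 2148 and 2405 at 1.5-fold, and 393 and 508 at 3-fold, beside 990 and 1236. The fewer calls at 3-fold and more at 1.5-fold follow from the threshold, and the cause of the others was not tested. Exchanging the 2 high-glucose arrays would turn the sign of every siRNA-HG difference by construction, and would exchange the 2 comparisons with NG, so that 2 rather than 0 of 7 members would be at least 2-fold lower in HG against NG. No paired analysis was possible because each group is 1 array. Single spots of dim probes such as Pdgfb limit what can be told.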

Other observations

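Mural and fibroblast markers did not all follow Pdgfrb. Cspg4, the NG2 proteoglycan of pericytes, read 3588 on the siRNA-labelled array, 1297 on the HG-labelled and 1425 on the NG-labelled array, 2.36-fold higher than on the HG-labelled array. Kcnj8, a potassium channel of pericytes, read 337 on the siRNA-labelled array, 144 on the HG-labelled and 158 on the NG-labelled array. After scaling, Kcnj8 differed by 0.998 from the HG-labelled array, just short of 2-fold, while its partner subunit Abcc9 differed by -0.05. Rgs5, another pericyte marker, read 142 on the siRNA-labelled array, 146 on the HG-labelled and 139 on the NG-labelled array. Its scaled difference from the HG-labelled array was -0.27. Among fibroblast markers, Fap, the fibroblast activation protease, differed by 0.86 between the siRNA- and HG-labelled arrays, against -1.90 for Col3a1. These genes were picked after their values were seen.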
